A study of Rattus norvegicus with 12 samples.

Results

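The 10 piRNAs described here are rare in sham-operated rat liver and reach their highest level 48h after partial hepatectomy, an operation that takes away part of the organ and sets off regrowth of what is left. They were chosen by name, from earlier results of these same data in which their 48h level was high. They are 10 of 701 piRNA names listed in at least 1 library. Because the 48h values chose them, every comparison with 48h below is a description without a test. The tests are kept for contrasts among 24h, 168h and sham-operated liver, in which no 48h library is compared. They are not fully free of the choice. A rise at 48h is judged against the other groups, so low levels there may have entered the choice too. Low sham levels raise the fold changes of 24h and 168h over sham. The 48h libraries still enter the fit behind these tests, through scaling, the filter on low counts and the shared spread. Without the 48h libraries, 62 piRNAs pass that filter in place of 80.

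All libraries came from liver of Fischer-344 rats, an inbred strain. The 6 libraries of the pre_PH group came from normal, sham-operated liver, and the labels give 2 libraries each at 24h, 48h and 168h after partial hepatectomy (PH). The sham libraries carry no time after surgery, so time after an operation and hepatectomy itself cannot be told apart. Whether replicate libraries stand for different rats is not stated in the labels. The p-values therefore refer to library-to-library spread, part of which may be technical. The files hold piRNA names only, so the tissue could not be checked against liver marker genes.

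PIWI-interacting RNAs (piRNAs) are small RNAs somewhat longer than microRNAs, cut from single-stranded precursors without Dicer. Bound to PIWI proteins they guide the silencing of transposons, a role studied mostly in germ cells. A name in these tables records which database entry a read matched, and not that the RNA was bound by a PIWI protein. No target or function is assigned here to any of the 10, so they are ordered by their level at 48h.

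Libraries held between 20741811 reads (48h replicate 1) and 31467460 reads (48h replicate 2), of which 120844 to 351818 were listed piRNA reads. Levels are given as reads in every 1000000 library reads (RPM), in which 1 read is worth 0.0318 to 0.0482 RPM. A count of 0 allows up to 3 reads, or 0.0953 to 0.145 RPM in a single library. Intervals and limits cover counting error only and leave out the spread between libraries, so single libraries can lie outside them. Reads copied by PCR are not independent molecules, so the counting error itself may be larger than given. The 48h libraries also listed more piRNA names than any other library, 328 and 446 against 129 to 216 in sham liver, 128 and 132 at 24h, and 151 and 177 at 168h. The part of this broader detection in the results below was not tested.

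Together the 10 piRNAs made up a very small share of the small RNA of sham liver and a larger one at 48h. Their summed level in pre_PH was 0.600 RPM in the lowest library, 1.02 at the median and 2.19 in the highest (mean 1.09 ± 0.577, SD, n = 6). At 24h it was 1.95 and 1.66 RPM, at 48h 31.6 and 18.3 RPM, and at 168h 1.48 and 1.67 RPM. Both 48h libraries lay far above the rest. On this scale the 24h and 168h libraries lay inside the sham range, but only because of pre_PH replicate 5 (2.19 RPM). The next highest sham library, pre_PH replicate 4, was at 1.09 RPM, below every 24h and 168h library. The mean at 48h (25.0 ± 9.36, n = 2) was 22.9 times the sham mean. With TMM scaling, which corrects for the makeup of the piRNA reads and whose factors at 48h were 1.51 and 1.43, that ratio was 14.8. Even at 48h the 10 piRNAs held only 0.542% and 0.229% of listed piRNA reads, against 0.00767 to 0.0358% in sham liver. Measured as this share, 24h replicate 1 (0.0465%) and 168h replicate 1 (0.0364%) lay above the sham range, and 24h replicate 2 (0.0207%) and 168h replicate 2 (0.0313%) inside it. In bulk tissue, a change in the number of cells that hold a small RNA and a change in its amount per cell cannot be told apart.

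**Figure D1:**
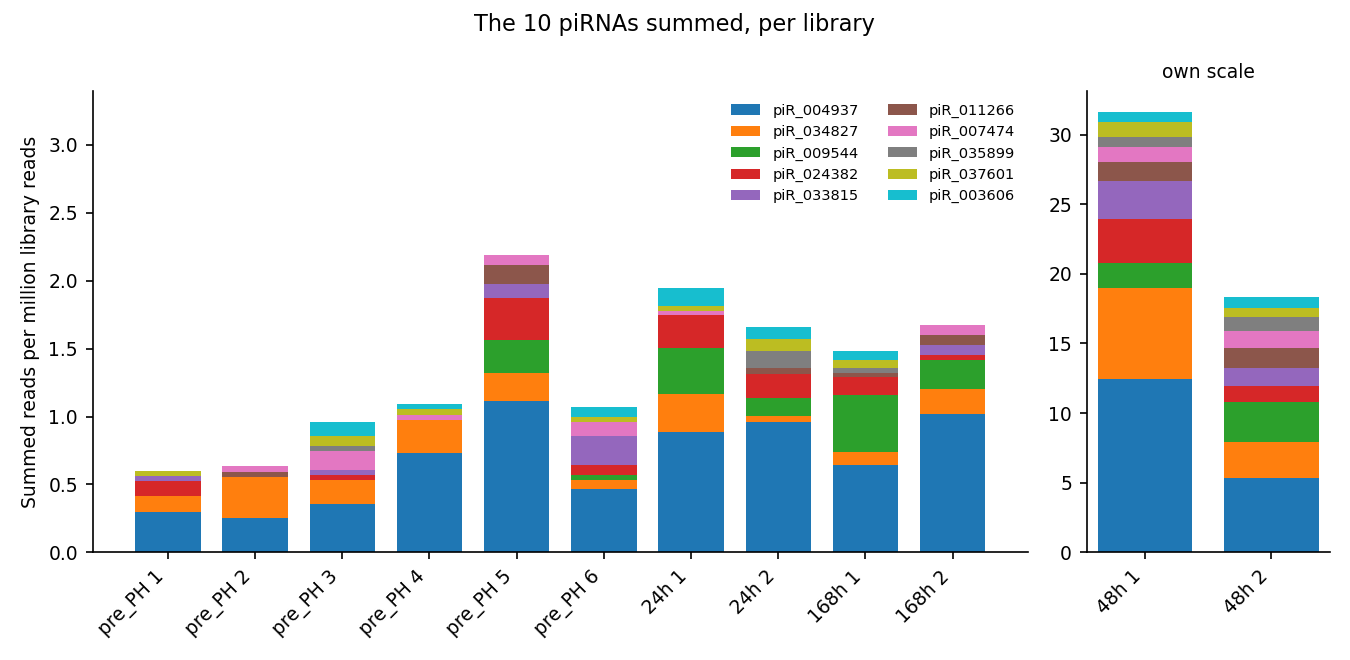
Summed RPM (reads scaled to library reads) of the 10 piRNAs in each library (vertical axis, starting at 0), stacked by piRNA, with the 2 libraries at 48h on a scale of their own. The 10 libraries outside 48h reach at most 2.19 RPM (pre_PH replicate 5), and rno_piR_004937 is the lowest segment of each bar.

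At the level of single piRNAs, all 10 were higher in both 48h libraries than in any of the other 10 libraries. The lower of the 48h values exceeded the highest value elsewhere by 3.66-fold (rno_piR_024382) to 9.72-fold (rno_piR_011266), with a median of 6.06. Against sham liver alone, 40% of the 80 piRNAs tested had both 48h libraries above all 6 sham libraries, a share that counts the 10 members themselves. Since the members were chosen for this, nothing is read from their count. All 10 passed the filter on low counts in the full set of libraries. Only rno_piR_009544 and rno_piR_004937 passed it when the 48h libraries were left out, so the other 8 enter the table of tested piRNAs only through 48h. Tests at 24h and 168h are therefore given for these 2 alone, and the other 8 are described by their reads.

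**Figure D2:**
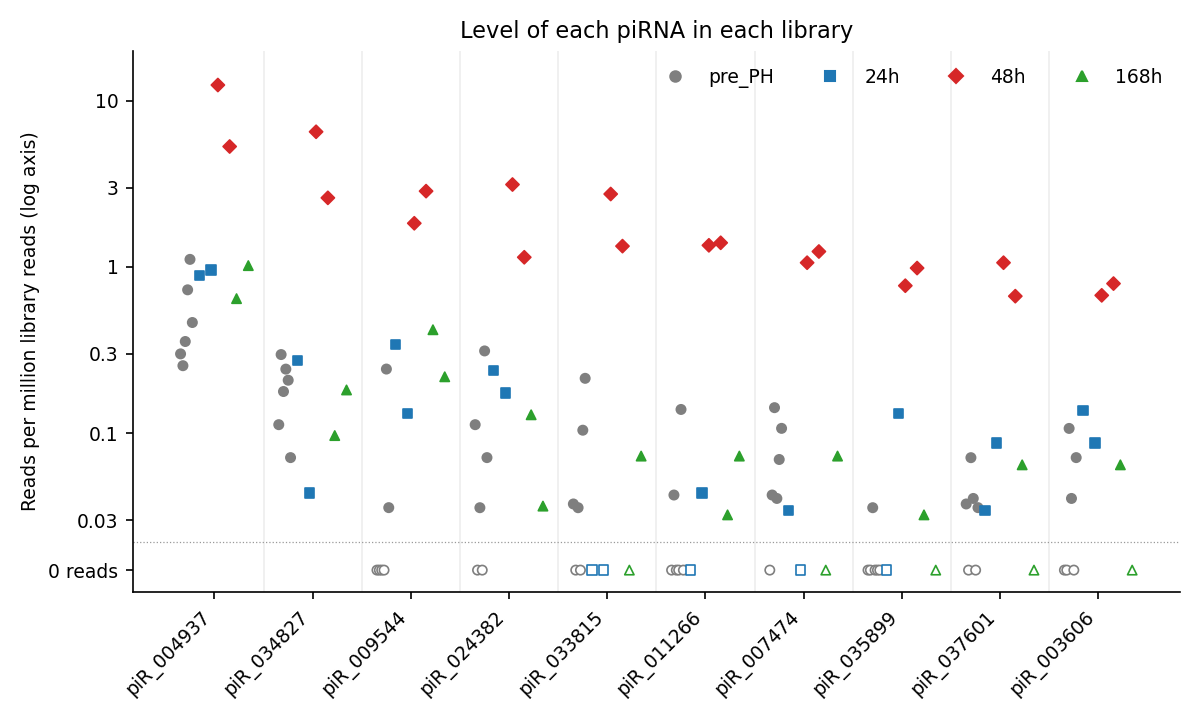
Level of each of the 10 piRNAs in each library, in RPM on a log axis, with libraries at 0 reads drawn as open symbols on the lowest line. Each point is 1 library, and the 48h diamonds lie above every other point of their piRNA.

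The most abundant of the 10, rno_piR_004937, was found in every sham library. It had 6 to 32 reads there, at 0.255 RPM in the lowest, 0.410 at the median and 1.11 in the highest. Its level was 0.889 and 0.961 RPM at 24h, 12.4 and 5.31 RPM at 48h (258 and 167 reads), and 0.645 and 1.02 RPM at 168h. All 4 values at 24h and 168h lay between the sham median and the highest sham library. Pooled over libraries, the 48h rate was 15.0 times that of sham liver (95% counting interval 11.9 to 19.1), the smallest ratio of the 10. With TMM scaling it was 8.87. It supplied 37.0 to 66.7% of the members' reads per sham library, and 39.4% (95% exact interval 35.6 to 43.2%) and 28.9% (25.3 to 32.8%) at 48h. In every library but pre_PH replicate 2, where rno_piR_034827 had 1 read more, it was the largest contributor.

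The next by level at 48h, rno_piR_034827, was also seen in all 12 libraries. It had 2 to 7 reads per sham library (0.0713 RPM in the lowest, 0.193 at the median, 0.297 in the highest). At 24h it had 8 and 1 reads (0.274 and 0.0437 RPM) and at 168h 3 and 5 reads (0.0967 and 0.182 RPM). Of these later libraries only 24h replicate 2 lay outside the sham range, below it, by less than the worth of 1 read. At 48h it had 135 and 82 reads (6.51 and 2.61 RPM), a pooled ratio to sham of 22.9 (95% counting interval 15.5 to 35.0), or 13.6 with TMM scaling.

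A different sham pattern was found for rno_piR_009544, which had 0 reads in 4 of 6 sham libraries. The remaining sham libraries, replicates 5 and 6, had 7 reads and 1 read (0.243 and 0.0356 RPM). It was present in every library after hepatectomy, with 10 and 3 reads at 24h (0.342 and 0.131 RPM), 38 and 90 at 48h (1.83 and 2.86 RPM), and 13 and 6 at 168h (0.419 and 0.218 RPM). Outside 48h, only pre_PH replicate 5 keeps the sham libraries from lying below all of the later ones. The pooled 48h rate was 49.0 times that of sham liver (95% counting interval 24.1 to 116), 9.83 times that at 24h (5.55 to 19.0) and 7.55 times that at 168h (4.64 to 12.9).

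Sham liver also differed between libraries in rno_piR_024382, which had 0 to 9 reads there (0 RPM in the lowest, 0.0535 at the median, 0.313 in the highest). Its level was 0.239 and 0.175 RPM at 24h, 3.13 and 1.14 RPM at 48h (65 and 36 reads), and 0.129 and 0.0364 RPM at 168h. The 24h and 168h libraries lay within the sham range. The pooled 48h rate was 20.6 times that of sham liver (95% counting interval 11.9 to 38.2).

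Between sham liver and 48h, rno_piR_033815 was not found at all at 24h. It had 0 to 6 reads in sham libraries (0.0366 RPM at the median, 0.214 in the highest), 57 and 42 reads at 48h (2.75 and 1.33 RPM), and 0 and 2 reads at 168h. The 0 reads at 24h, of 52131853 library reads, allow up to 0.0575 RPM. The pooled sham rate was 0.0688 RPM, from 11 reads, and its difference from 24h was not tested. Against 3 reads over the 24h group, the 48h rate was at least 33.0-fold higher, or 16.0-fold with TMM scaling. The exact 95% interval of that ratio, which also counts the error of the 48h reads, starts at 26.3 (12.8 with TMM scaling). Its ratio to sham was 27.6 (95% counting interval 14.8 to 57.0) and to 168h 55.4 (15.0 to 464).

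Both 48h libraries gave nearly equal levels of rno_piR_011266 and rno_piR_007474. This was not particular to them. The RPM ratio of replicate 2 to replicate 1 was 1.17 for rno_piR_007474 and 1.18 for rno_piR_003606, described below. For rno_piR_011266 the 48h levels were 1.35 and 1.40 RPM (28 and 44 reads), against 0 to 4 reads in sham libraries, 0 and 1 at 24h, and 1 and 2 at 168h. Its sham reads came from replicates 2 and 5 only, and its pooled ratio to sham was 44.1 (95% counting interval 18.0 to 140). For rno_piR_007474 the 48h levels were 1.06 and 1.24 RPM (22 and 39 reads), against 0 to 4 reads in sham libraries, where 5 of 6 had some, 1 and 0 at 24h, and 0 and 2 at 168h. Its ratio was 17.0 to sham (8.86 to 35.8) and 60.9 to 24h, with an interval of 10.5 to 2445 set by the single read at 24h. It was thus seen in 5 of 6 sham libraries (pooled 0.0688 RPM, 11 reads) and in 1 of 2 libraries at 24h (0.0192 RPM, 1 read). No difference between them is read from so few reads.

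The remaining 3 had the lowest mean levels at 48h. The rarest in sham liver, rno_piR_035899, had 1 read in all 6 libraries together, 0 and 3 reads at 24h, 16 and 31 at 48h (0.771 and 0.985 RPM), and 1 and 0 at 168h. Against that single sham read its ratio was 144 (95% counting interval 24.6 to 5804), an interval that overlaps those of 8 of the other 9. Reads of rno_piR_037601 numbered 0 to 2 per sham library, 1 and 2 at 24h, 22 and 21 at 48h (1.06 and 0.667 RPM), and 2 and 0 at 168h, for a ratio to sham of 26.3 (10.5 to 85.2). Those of rno_piR_003606 numbered 0 to 3 per sham library, 4 and 2 at 24h, 14 and 25 at 48h (0.675 and 0.794 RPM), and 2 and 0 at 168h, for a ratio of 19.9 (8.37 to 57.5). Of the 10, rno_piR_003606 had the smallest ratio of 48h to 24h, 6.49 (2.73 to 18.8).

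Across the 10, the median pooled ratio to sham liver was 24.6 on library reads and 14.6 with TMM scaling. On library reads the ratio of 48h to 168h ran from 7.55 to 55.4 (median 25.5), and that of 48h to 24h, for the 9 with reads at 24h, from 6.49 to 71.9 (median 14.3). With TMM scaling they were smaller, 3.70 to 27.2 (median 12.5) against 168h and 3.15 to 34.9 (median 6.95) against 24h. The 3 sets of ratios share the 48h libraries.

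The 48h libraries differed from each other in which of the 10 were high. Replicate 2 held 60.3% of the library reads of the pair and 67.6% of their listed piRNA reads. It held 39.3% of the reads of rno_piR_004937 (95% exact interval 34.6 to 44.1%), 37.8% for rno_piR_034827 (31.3 to 44.6%), 35.6% for rno_piR_024382 (26.4 to 45.8%) and 42.4% for rno_piR_033815 (32.5 to 52.8%). These 4 were thus more concentrated in replicate 1 beyond counting error, and their RPM in replicate 2 was 0.365 to 0.486 times that in replicate 1. For rno_piR_009544 the share in replicate 2 was 70.3% (61.6 to 78.1%), above the share of library reads. The other 5, at 48.8 to 66.0%, had intervals that included the share of library reads, though that of rno_piR_037601 (33.3 to 64.5%) lay below the share of piRNA reads. The order of levels changed accordingly. In replicate 1 rno_piR_009544 was the fifth of the 10, after rno_piR_004937, rno_piR_034827, rno_piR_024382 and rno_piR_033815, and in replicate 2 it was the second. The highest, rno_piR_004937, stood above the rest in both libraries beyond counting error. Below it the order was not the same in the 2 libraries.

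**Figure D3:**
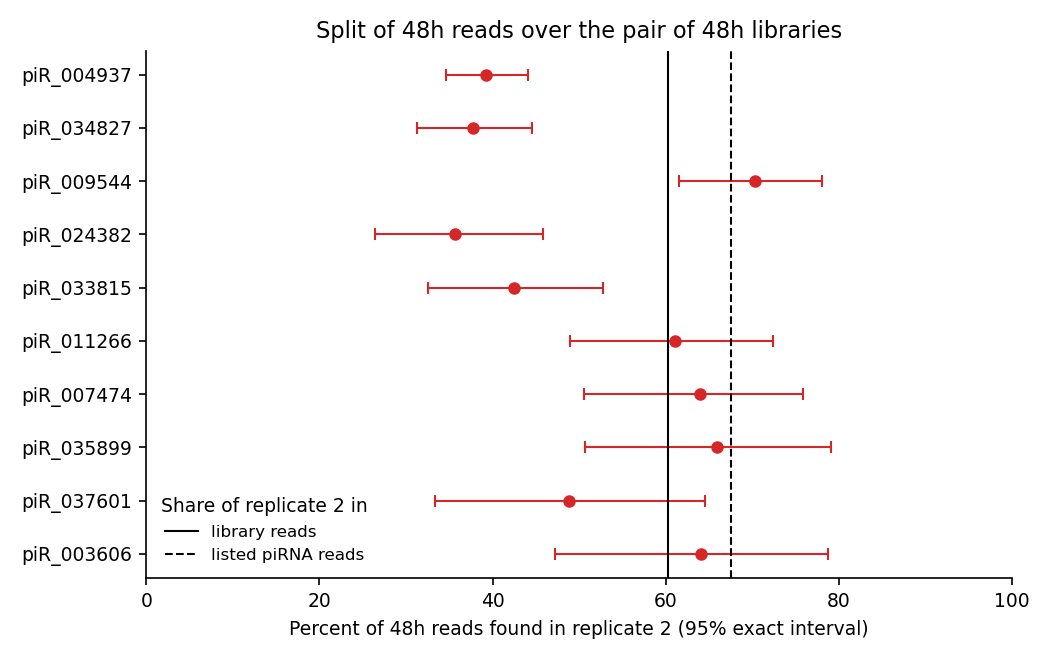
Percent of the 48h reads of each piRNA found in 48h replicate 2 (horizontal axis, 0 to 100%), with exact 95% intervals for counting error and lines at the share of replicate 2 in library reads (60.3%) and in listed piRNA reads (67.6%). The intervals of rno_piR_024382, rno_piR_034827, rno_piR_004937 and rno_piR_033815 lie left of both lines and that of rno_piR_009544 lies right of the solid line.

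The deposited tables also count the distinct read sequences behind each name, which may differ in length or in bases. At 48h the reads of each of the 10 came from several sequences, from 6 distinct sequences behind 28 reads of rno_piR_011266 in replicate 1 to 39 behind 90 reads of rno_piR_009544 in replicate 2. The most repeated was rno_piR_004937, with 22 and 24 distinct sequences behind 258 and 167 reads. By distinct sequences divided by library reads, both 48h libraries again lay above all 10 other libraries for each of the 10 piRNAs. The ratio of the 48h mean to the sham mean was smaller on this measure, 3.19 for rno_piR_004937 (16.6 by mean RPM) to 72.7 for rno_piR_035899 (148), with a median of 10.9 against 26.3. The 48h libraries thus stood apart on both measures, by less in kinds of read than in number of reads.

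In reads per distinct sequence, the 10 lay among other piRNAs of like abundance, except that rno_piR_037601 and rno_piR_033815 fell below them in 48h replicate 2. Their median was 2.61 in 48h replicate 1, with a range of 1.60 to 11.7. For the 43 other piRNAs in the same range of 14 to 258 reads it was 3.33, with a range of 1.23 to 40.0. In replicate 2 the median was 2.66 (range 1.40 to 6.96) for the 10 and 3 (1.62 to 14.3) for 29 others with 21 to 167 reads. Over all non-member piRNAs, distinct sequences per 1000 reads numbered 16.8 and 11.4 at 48h, against 4.68 to 11.0 in sham liver, 7.55 and 10.7 at 24h, and 9.19 and 11.7 at 168h. Per piRNA read, sequence diversity was therefore also higher outside the 10 in 48h replicate 1. In number, non-member distinct sequences were 2023 and 2866 at 48h, against 1179 to 1685 in sham liver, 1317 and 1387 at 24h, and 1481 and 1350 at 168h. By this count both 48h libraries stood above all others outside the 10 as well, although replicate 1 had the fewest library reads. The part of this in the members' values was not tested.

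**Figure D4:**
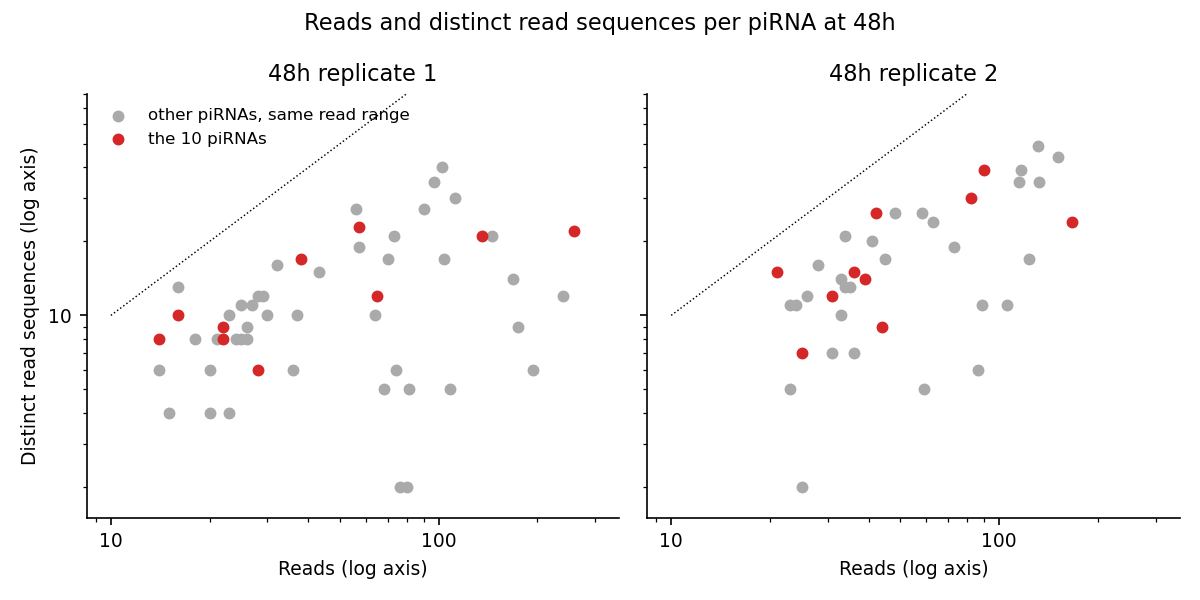
Distinct read sequences against reads at 48h, both on log axes, for the 10 piRNAs (red) and other piRNAs with read counts in the same range (grey), 1 panel per library. The dotted line marks 1 read per distinct sequence, and most red points lie within the cloud of grey ones. In replicate 2, rno_piR_037601 (21 reads, 15 distinct sequences) and rno_piR_033815 (42 and 26) lie nearer the dotted line than any grey point.

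At 24h, around the time when many hepatocytes of a regenerating rat liver copy their DNA, neither rno_piR_009544 nor rno_piR_004937 passed the test against sham liver. The test was edgeR's quasi-likelihood test over 80 piRNAs, with p-values adjusted by the Benjamini-Hochberg method and a threshold of 0.05. It called 2.5% of the 80 piRNAs. Of these 2 piRNAs, 1 had an unadjusted p under 0.05 (rno_piR_009544), and DESeq2 called neither. The log2 fold change was 2.61 ± 1.07 (SE) for rno_piR_009544 (edgeR adjusted p = 0.314) and 1.10 ± 0.61 for rno_piR_004937 (0.525). The call for rno_piR_009544 depended on 1 sham library. Without pre_PH replicate 5, the log2 fold change was 4.70 and the piRNA passed (edgeR adjusted p = 0.0248, over all alternatives 0.0248 to 0.736). Over all 10, no member had both 24h libraries above all 6 sham libraries, as 2.5% of the 80 piRNAs did. Most members had few reads at 24h, so nothing is read from this count. Single 24h libraries lay above the sham range for rno_piR_009544, rno_piR_035899, rno_piR_037601 and rno_piR_003606.

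At 168h, when most of the regrowth in rats is over, neither of the same 2 piRNAs passed against sham liver by edgeR, which called 6.25% of the 80 piRNAs, and DESeq2 called neither. The nearer to a call was again rno_piR_009544, with an unadjusted p of 0.00565. Its log2 fold change was 3.13 with an SE of 1.03, and its edgeR adjusted p was 0.0754. It passed without pre_PH replicate 5 (5.23, edgeR adjusted p = 0.0114) and without pre_PH replicate 1 (2.87, 0.0384), and in none of the other 18 alternatives, where the adjusted p reached 0.424. For rno_piR_004937 the log2 fold change was 0.95 ± 0.61 (edgeR adjusted p = 0.402). Over all 10, no member had both 168h libraries above all 6 sham libraries, as 12.5% of the 80 piRNAs did. Most members had few reads at 168h, so nothing is read from this count. Of the 8 given without a test, 6 had 1 to 3 reads over the pair of 168h libraries.

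Between 24h and 168h, neither rno_piR_009544 nor rno_piR_004937 passed by edgeR, which called 1.25% of the 80 piRNAs. Neither had an unadjusted p under 0.05, and DESeq2 called neither. The log2 fold change from 24h to 168h was 0.52 ± 1.19 (SE) for rno_piR_009544 (edgeR adjusted p = 0.846) and -0.15 ± 0.77 for rno_piR_004937 (0.896). With other scalings the first of these turned to -0.049 (DESeq2 size factors) and the second to 0.081 (listed piRNA reads). These standard errors leave room for differences of several fold, so the comparison does not show equal levels at these times.

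Other piRNAs shared the profile of the 10 over the 12 libraries. Likeness was measured as Pearson's r between each non-member among the tested piRNAs and the mean of the 10, on log2(RPM + 0.1). The r values are descriptive, since the points share libraries and 2 of the 12 set the profile. The 5 highest among 70 were rno_piR_002100 (r = 0.944), rno_piR_031043 (0.930), rno_piR_010957 (0.930), rno_piR_006831 (0.930) and rno_piR_030575 (0.904), beside a median of 0.322. Each of the 10 had an r of 0.872 (rno_piR_009544) to 0.960 (rno_piR_011266) with the mean of the other 9. Since the 10 were chosen for their 48h level, a high r among them was built in and nothing is read from it. Their r without the 48h libraries was not computed. Leaving out the 48h libraries, r of those 5 ranged from -0.061 to 0.687, so the likeness rests largely on 48h.

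In level, these piRNAs spanned a wide range. At 48h rno_piR_002100 stood at 4.34 and 3.65 RPM against 0.127 to 0.625 in sham liver, 0.308 and 0.349 at 24h, and 0.129 and 0.437 at 168h. For rno_piR_010957 the 48h levels were 4.68 and 3.72 RPM and for rno_piR_006831 5.40 and 4.20 RPM, against sham ranges of 0.320 to 1.04 and 0.255 to 1.25. The scarcest of the 5, rno_piR_030575, had 30 and 45 reads at 48h (1.45 and 1.43 RPM), 0 to 6 in sham libraries and 0 in both at 168h. The far more abundant rno_piR_031043 stood at 139 and 224 RPM at 48h against 4.67 to 10.3 in sham liver. Its pooled ratio to sham was 25.9 (95% counting interval 24.4 to 27.5), close to the members' median of 24.6. At 24h it had 3.69 and 2.18 RPM, below the sham range in both libraries, where the members lay within it or, in single libraries, to either side. That difference between rno_piR_031043 and the members was not tested. At the other extreme, 227 names were listed at 48h only, none with more than 8 reads in a library, and none of the 10 was among them.

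**Figure D5:**
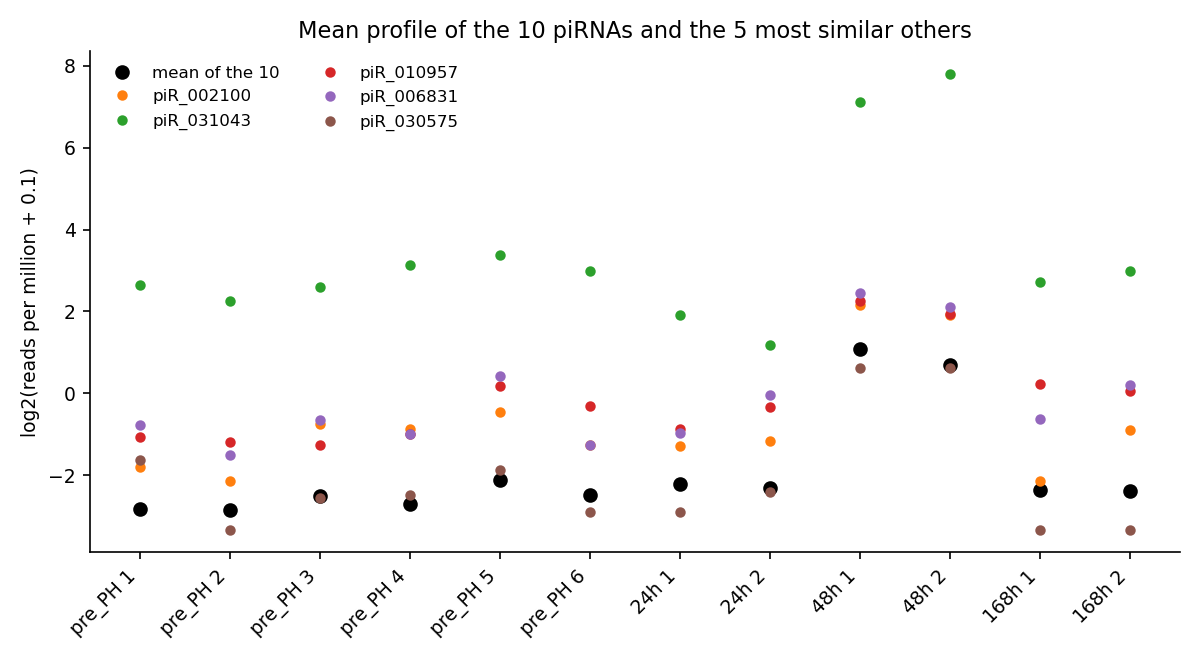
Profile over the 12 libraries of the mean of the 10 piRNAs (black) and of the 5 most similar other piRNAs, as log2(RPM + 0.1), 1 point per library. All 6 profiles peak in the 48h libraries, and rno_piR_031043 is the highest throughout.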

How the data were processed

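Libraries for small RNA (TruSeq protocol) were made from TRIzol extracts and read on a HiSeq, per the labels. The deposited tables gave for each piRNA name a read count and a count of distinct read sequences, whole numbers per the file headers. Another deposited column, read from its name and values as the authors' percent of all reads of the library, gave the totals behind RPM. Whether these totals are sequenced or aligned reads is not stated, so RPM is relative to one or the other. CASAVA 1.8, cutadapt, DESeq 1.14.0 and the build rn4 are named in the submitters' processing notes without a role. For the aligner, the mismatches allowed and the handling of reads that match several names, the entry is: not given in the sources used here. Near-identical names can therefore share or split reads, and a name not listed was taken as a count of 0.

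The members and lists were chosen with earlier results of these data known. The test of counts was that of edgeR 4.0.16 (R 4.3.3, robust quasi-likelihood fit, TMM scaling, filterByExpr) in 1 fit of all 12 libraries and 4 groups, checked on simulated data. DESeq2 1.42.0 was an alternative, beside other scalings, filters and sets of libraries. Test results are given only for the 2 members that pass the filter without the 48h libraries. Standard errors are the log2 fold change over the square root of F. Ratios carry exact conditional 95% intervals. All 10 members are named, with the 5 most similar piRNAs by r. No 2 libraries of a group agreed within sampling noise (chi-square tests).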

Additional observations from a re-analysis of the deposited data

Results flagged for a closer look

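In sham liver, 1 library stood apart from the other 5 in 5 of the 11 measures that were checked. For normally distributed values, chance flags about 1 in 20 groups. That rate does not hold for counts this low, because a piRNA with reads in only 1 library is always flagged. The measures also share libraries, so 5 of 11 cannot be compared with chance. In 4 of the 5 measures the library was pre_PH replicate 5. It had a summed level of the 10 piRNAs of 2.19 RPM (63 reads), with the next library at 1.09. It had rno_piR_009544 at 0.243 RPM (7 reads, next 0.0356), rno_piR_024382 at 0.313 RPM (9 reads, next 0.112) and rno_piR_011266 at 0.139 RPM (4 reads, next 0.0425). This library also listed the most piRNA names of the 6, 216 against 129 to 175, and the part of that in its member levels was not tested. The fifth measure was rno_piR_035899 in pre_PH replicate 3, at 0.0356 RPM from a single read where the other 5 libraries had none.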

How the results depend on the processing

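Neither rno_piR_009544 nor rno_piR_004937 was called at 24h, at 168h or between them under the 8 alternatives that leave out no single library. Leaving out 1 library gave 0 to 1 called against sham liver at 24h and at 168h, always rno_piR_009544, and 0 to 0 between 24h and 168h. Over all piRNAs tested, calls at 24h (2) became 1 with listed piRNA reads, 5 with library reads (1 rise and 4 falls), 1 without a filter, 4 with DESeq2 and 1 without the 48h libraries. Calls at 168h (5) became 2 with listed piRNA reads, 0 with library reads, 3 without a filter and 0 with at least 10 reads in 4 libraries. Calls between 24h and 168h (1) became 3 with library reads, 2 without a filter and 4 with DESeq2. Without 1 library the calls ranged from 0 (24h replicate 1) to 5 (48h replicate 2) at 24h, from 0 (24h replicate 1, 168h replicate 2) to 6 (pre_PH replicate 1) at 168h, and from 0 (pre_PH replicates 4 and 6, both 24h libraries, 168h replicate 2) to 6 (48h replicate 2) between them. A group left with 1 library was taken to vary like the others. The replicate block gave 1, 0 and 0 calls. Differences between replicates 1 and 2 correlated at -0.354 to 0.377 between groups. These values cannot settle whether libraries of the same number share an animal or a preparation, which the labels do not state.

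Scaling moved the median log2 fold change of all 80 piRNAs, from -0.22 with TMM to -0.48 with library reads at 24h, and from 0.33 to -0.045 at 168h. Signs that turned belong to values that passed no test. From 24h to 168h, the log2 fold change of rno_piR_009544 turned to -0.049 with DESeq2 size factors, -0.33 with at least 10 reads in 4 libraries and -0.054 with DESeq2, and ranged from -0.47 to 0.89 without 1 library. That of rno_piR_004937 turned to 0.081 with listed piRNA reads and 0.0085 without a filter (range -0.95 to 0.023). The cause of these turns was not tested. Without the 48h libraries the likeness r was -0.061 for rno_piR_031043 and -0.029 for rno_piR_030575. Of the 5 most similar piRNAs, 4 stayed at a pseudocount of 0.03, 2 at 0.5 and 2 without the 48h libraries.

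The summed 48h level over sham was 14.8 with TMM scaling and, in measures added after seeing the data, 9.07 in distinct sequences and 28.9 without rno_piR_004937. Leaving out 1 library, it ranged from 16.8 (48h replicate 1) to 28.9 (48h replicate 2) at 48h, and over the libraries from 1.52 to 2.07 at 24h and 1.33 to 1.81 at 168h. Outside 48h most members rest on fewer than 10 reads per library, so modest differences were not detectable at this depth.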
